A study of Mus musculus with 3 samples.

Results

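The Nppa-high spots of the sham heart section were those in which Nppa made up the largest part of the transcripts. They were chosen by their Nppa level, as the spots at or above the 95th percentile of Nppa UMIs (unique molecular identifiers, which count captured RNA molecules) per 10000 UMIs among all sham spots with at least 200 detected genes. This rule took 112 of the 2234 spots used in the sham section, of 6276 spots used in all 3 sections. The other 2122 sham spots were the comparison set. The question was whether the Nppa-high spots carried atrial, endocardial or conduction system genes.

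The data were Visium libraries, made by placing a 10-µm frozen section over an array of capture spots, each with its own barcode. A spot is a small region of tissue and usually covers more than 1 cell and cell type. The sham mouse (C57BL/6, 8 weeks old) received vehicle by gavage for 7 days, and in the operation the needle was passed without tying the coronary artery. The I/R mouse received vehicle for 7 days, then 30 min of ligation of the left anterior descending artery and 24 h of reperfusion, and the SBP mouse received MUSKARDIA (Shexiang Baoxin Pill) for 7 days before the same ligation and reperfusion. Each condition was 1 section of 1 heart, so no condition has a replicate and no p-value can be given. At which level of the heart the sections were cut is not given in the sources used here.

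Nppa encodes the precursor of atrial natriuretic peptide, a hormone that lowers blood volume and blood pressure by acting on the kidney and on vessels. In the adult heart it is made mostly by atrial cardiomyocytes. In the ventricle it is made by the embryonic trabeculae, and later it remains in parts of the subendocardial muscle and the Purkinje fibre network, the fast-conducting cells that spread the impulse beneath the endocardium. It is switched on again in ventricular muscle under load or injury. The endocardium is the endothelial lining of the chambers, and its cells carry genes such as Npr3, Cytl1 and Vwf that set them apart from capillary endothelium.

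Total depth ranged from 21631280 UMIs in SBP to 30238530 in I/R, with 25118258 in sham, and 1 to 3 spots per section were left out for having under 200 genes. The sections shared 1207 to 1568 spot barcodes in pairs, which are addresses on the slide and not cells. In sham, the Nppa-high spots were deeper than the others (median 13069.5 against 10537 UMIs and 2665 against 2018.5 genes) and had a smaller mitochondrial share of UMIs (median 42.0% against 49.7%). Levels are therefore given as UMIs per 1000000 UMIs (CPM), summed over the spots of a set. In such data fewer cells of a type and less RNA per cell cannot be told apart.

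The Nppa level is given as a description only, since it chose the spots. It ran from 13.3 to 270 UMIs per 10000 over the 112 spots, with a median of 25.7, and the median of the other spots was 1.13. The threshold cut through a continuous range: the lowest member had 13.29 and the highest spot outside had 13.28 UMIs per 10000. The 112 spots held 7120 of the 11507 Nppa UMIs of the section (61.9%) but 5.98% of all UMIs, and 670 of the 2234 spots had no Nppa UMI. The highest single spot held 863 Nppa UMIs.

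**Figure D1:**
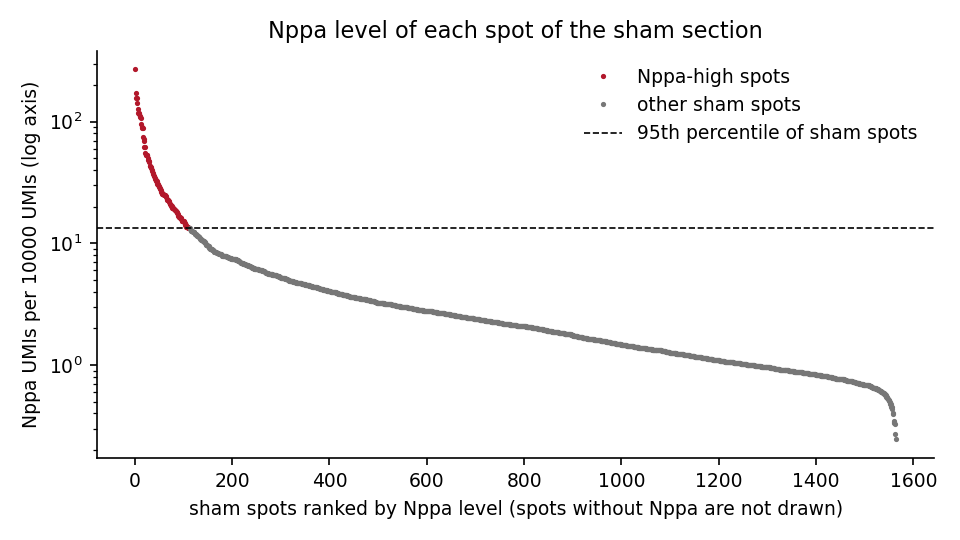
Nppa UMIs per 10000 UMIs (log axis) of each sham spot, ranked from the highest; red points are the 112 Nppa-high spots, grey points the other spots, and the dashed line is the threshold of 13.3. The level falls without a break across the threshold, and the 670 spots without Nppa are not drawn.

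The promoters of Nppa and of a gene named below for each of the atrial, endocardial and conduction questions (Stard10, Cytl1 and Cntn2) are shown. Each run covers 250 bases before to 50 bases after the start of the gene, 5′ to 3′ on the strand of the gene, from RefSeq on GRCm38.p6. Capitals mark exact matches, on either strand, to 4 short motifs. The letters searched were TATAAA for the core promoter element of that name, AGATAA for zinc finger factors such as Gata4, AAGTG for the homeodomain factor Nkx2-5 and AGGTGT for T-box factors such as Tbx5.
Nppa promoter, chr4:148000472-148000771, plus strand: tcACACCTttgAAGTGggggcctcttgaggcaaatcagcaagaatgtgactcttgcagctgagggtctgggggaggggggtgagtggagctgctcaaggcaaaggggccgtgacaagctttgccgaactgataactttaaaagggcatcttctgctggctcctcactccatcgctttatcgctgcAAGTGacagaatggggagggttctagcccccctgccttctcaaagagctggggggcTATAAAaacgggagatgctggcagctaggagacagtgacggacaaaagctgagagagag
Stard10 promoter, chr7:101316836-101317135, plus strand: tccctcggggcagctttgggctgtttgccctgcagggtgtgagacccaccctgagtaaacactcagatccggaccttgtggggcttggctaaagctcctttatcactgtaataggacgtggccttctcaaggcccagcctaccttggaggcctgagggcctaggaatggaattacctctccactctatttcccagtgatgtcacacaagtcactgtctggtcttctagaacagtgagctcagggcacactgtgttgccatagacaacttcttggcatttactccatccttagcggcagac
Cytl1 promoter, chr5:37735269-37735568, plus strand: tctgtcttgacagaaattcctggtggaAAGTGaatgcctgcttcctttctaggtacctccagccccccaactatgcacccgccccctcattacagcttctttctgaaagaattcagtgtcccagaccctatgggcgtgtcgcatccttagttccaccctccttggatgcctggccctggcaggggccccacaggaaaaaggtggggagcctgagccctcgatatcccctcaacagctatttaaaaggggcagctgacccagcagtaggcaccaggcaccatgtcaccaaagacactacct
Cntn2 promoter, chr1:132542891-132543190, minus strand: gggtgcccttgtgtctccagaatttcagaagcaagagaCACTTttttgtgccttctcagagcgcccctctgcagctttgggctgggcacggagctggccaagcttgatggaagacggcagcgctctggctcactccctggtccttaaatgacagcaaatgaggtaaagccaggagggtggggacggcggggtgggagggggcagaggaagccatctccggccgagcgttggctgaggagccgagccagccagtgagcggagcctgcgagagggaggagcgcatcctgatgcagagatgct
The Nppa promoter held the core element once, the Nkx2-5 letters at 2 places and the T-box letters once, on the reverse strand. The Nkx2-5 letters also stood once in the Cytl1 promoter and once, reversed, in that of Cntn2, while the Stard10 window held none of the 4 and no window held the zinc finger letters. No match overlapped another. Of 32851 RefSeq promoter windows of 300 bases, 46.4% hold the Nkx2-5 letters, 13.7% the T-box letters, 13.6% the core element and 11.2% the zinc finger letters, so these matches are a description of the letters and not of binding.

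Across the 6659 genes other than Nppa with 200 or more UMIs in the sham section, 145 were at least 2-fold higher in the Nppa-high spots (2.18%) and 27 at least 2-fold lower (0.405%). The minimum counts the UMIs of both sets, so UMIs in the Nppa-high spots can carry a gene over it. This holds for the 2.18% and for the lists below. Ratios are CPM in the Nppa-high spots over CPM in the other spots, on the log2 scale, with exact conditional binomial 95% intervals, which cover counting error only. The median of all 6659 ratios was 0.22 rather than 0, and a TMM factor would lower each ratio by 0.29. With TMM 46 genes were at least 2-fold higher and 63 lower, and without the mitochondrial UMIs 58 were higher and 69 lower. Genes with a ratio near 0.2 to 0.3 thus stood level with the typical gene. Of the 145 genes, 39 had the whole interval above 2-fold, and the intervals of 7 of the 27 lower genes included 0.

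Several defining genes of atrial muscle had 0 UMIs in the Nppa-high spots, whereas Stard10 and, on few UMIs, Myl4 and Dkk3 were higher. Myl7, the atrial regulatory myosin light chain, had 0 UMIs in the 112 spots and 3 in the other 2122. Sln, the sarcolipin of atrial calcium handling, also had 0 and 3, and Bmp10, a right atrial growth factor, had 0 in both sets. Mybphl, an atrial sarcomere protein, had 0 UMIs in the Nppa-high spots and 1 in the others. Taking 3 counts as the limit that a count of 0 allows, the level could be up to 2.0 CPM (3 UMIs of 1503048) and the share up to 2.83% of 106 spots thinned to equal depth. The exact 95% intervals reach 2.45 CPM and 3.42%.

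Stard10, a lipid transfer protein that is among the genes used to mark atrial cardiomyocytes, stood apart from that list. It had 170 UMIs in the Nppa-high spots (113 CPM) and 319 in the others (13.5 CPM), a ratio of 3.07 (95% interval 2.79 to 3.34), and was the highest of all 6659 genes. It was found in 51 of 112 Nppa-high spots (45.5%) and 276 of 2122 others (13.0%). After thinning every spot to 7000 UMIs, which left out 6 and 191 shallower spots, the shares were 34.9% and 7.87%. The highest spot, which was also the highest in Nppa, held 26 of the 170 UMIs. At least 1 UMI of the atrial markers Myl7, Myl4, Sln, Bmp10, Dkk3 and Stard10 was found in 56 of 112 Nppa-high spots (50%) and 329 of 2122 others (15.5%), at summed levels of 128 and 17.0 CPM. Stard10 made up 170 of these 192 UMIs in the Nppa-high spots and 319 of 401 in the others.

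Of the 17 genes of the atrial list, 8 had 200 or more UMIs. Stard10 alone of these was at least 2-fold higher (2.18% of all genes were), with a list median of 0.35 beside 0.22 over all genes. Kcnj3 (0.11), Kcna5 (-0.40) and Kcnk3 (0.06), potassium channel genes of atrial muscle, did not reach the fold. Neither did Pam (0.41), which amidates peptides and is abundant in atrial granules, nor Nr2f2 (0.75), a transcription factor of atrial identity and of veins. Another 4 genes with fewer UMIs were above the fold: Dkk3 (7 and 16 UMIs, ratio 2.78, interval 1.26 to 4.14), Gja5 (23 and 79, 2.19, 1.46 to 2.88), Myl4 (15 and 60, 1.97, 1.05 to 2.81) and Tbx5 (22 and 127, 1.44, 0.72 to 2.11). Gja5 encodes connexin 40, which atrial muscle shares with Purkinje fibres and arterial endothelium, and Tbx5 is a transcription factor of atria and the conduction system. Myl4, the atrial essential light chain, had 33.3% of its UMIs in 1 spot.

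By spot, the UMIs of the 6 atrial list genes other than Clu and Pam (2 genes that many cell types use) were at or above the 99th percentile of the other spots in 4 of 112 Nppa-high spots (3.57%, exact binomial interval 0.982% to 8.89%). Their median was 3.56 UMIs per 10000 in the Nppa-high spots and 2.78 in the others. The 8 conduction list genes with enough UMIs also passed that percentile in 4 of 112 spots, with medians of 2.63 and 1.41 UMIs per 10000.

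Most ventricular muscle genes were close to the level of the other spots. Myl2, the ventricular regulatory light chain, was present in all 112 spots at 12328 CPM against 12102 CPM in the others (ratio 0.03, interval 0.01 to 0.05), and Myl3, the ventricular essential light chain, had a ratio of -0.04 (-0.07 to -0.01). Pln, phospholamban, had 0.15, and Gja1, the main ventricular connexin, had -0.04. With TMM each of these ratios would be 0.29 lower, so that all 4 would lie slightly below 0. None of the 8 ventricular list genes with enough UMIs was at least 2-fold higher (2.18% of all genes were). Of the 8, 1 was lower (0.405% of all genes were). That gene was Kcnd2, a subunit of the transient outward potassium channel that is low in the inner wall of the ventricle, with 4 UMIs in the Nppa-high spots and 217 in the others (2.66 and 9.19 CPM, ratio -1.79, interval -3.68 to -0.41). Kcnip2, the regulatory subunit of the same channel, had 56 and 1269 UMIs (37.3 and 53.7 CPM, ratio -0.53, interval -0.94 to -0.14), which does not reach the fold.

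Endocardial genes were higher in the Nppa-high spots. Of the 14 genes of the endocardium list, 7 had 200 or more UMIs, and 4 of these were at least 2-fold higher (2.18% of all genes were), with a list median of 1.38. They were Cytl1, a secreted cytokine-like protein of endocardium (42.6 against 7.07 CPM, ratio 2.59, interval 2.15 to 3.01), Plvap, which forms the diaphragms of endothelial fenestrae (35.9 against 8.98 CPM, 2.0, 1.54 to 2.44), Vwf, the platelet adhesion protein of larger vessels and endocardium (91.8 against 33.6 CPM, 1.45, 1.18 to 1.71), and Cgnl1, a tight junction protein (23.3 against 8.98 CPM, 1.38, 0.82 to 1.90). Tmem100 (1.0, just short of the fold), Eng and Ednrb (0.94 each) did not reach it. The 4 genes stayed past the fold with TMM. Cytl1 (64 and 167 UMIs) and Tmem100 (23 and 181) passed the minimum only with the UMIs of the Nppa-high spots. Without the 23 spots highest in Nppa, 5 list genes still had 200 UMIs and 2 of them were past the fold, Plvap (1.61) and Vwf (1.10).

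Npr3, the natriuretic peptide clearance receptor and a defining gene of endocardium, had 34 UMIs in the Nppa-high spots and 99 in the others (22.6 against 4.19 CPM, ratio 2.43, interval 1.82 to 3.01). It was found in 20 of 112 spots (17.9%) against 83 of 2122 (3.91%). Cdh11 (17 and 43 UMIs, 2.63, 1.73 to 3.48) and Smoc1 (8 and 34 UMIs, 1.89, 0.56 to 3.02) were also above the fold. Nfatc1, a transcription factor of endocardial and valve development, had 16 and 131 UMIs and a ratio of 0.94 (0.09 to 1.69), which does not reach it. Edn1 had 7 and 96 UMIs and a ratio of 0.20, and Hapln1 had 0 UMIs in both sets.

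The endocardial genes were in part of the Nppa-high spots. At least 1 UMI of the markers Npr3, Cytl1, Nfatc1, Smoc1 and Vwf was found in 66 of 112 spots (58.9%) and in 603 of 2122 others (28.4%), or 43.4% and 22.6% after thinning. The summed level of these 5 markers ran from 0 to 17.5 UMIs per 10000 over the Nppa-high spots (median 0.711) and from 0 to 19.3 over the others (median 0), so the ranges overlapped. A list score at or above the 99th percentile of the other spots was reached by 12 of 112 spots (10.7%, exact binomial interval 5.66% to 18.0%).

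Capillary endothelium did not follow the endocardial genes. Of the 12 capillary list genes, all with 200 or more UMIs, none was at least 2-fold higher or lower, and the list median was -0.05. Over all genes 2.18% were higher and 0.405% lower, so 0 of 12 is near these shares. Fabp4, a fatty acid carrier of capillary endothelium, had a ratio of -0.29 (-0.41 to -0.18). Kdr, the main receptor of vascular endothelial growth factor, had -0.35 (-0.73 to 0.01), and Rgcc, a capillary gene, had 14 and 425 UMIs and a ratio of -0.95 (-1.83 to -0.19). Rgcc was past 2-fold lower with TMM. Other list genes went the other way: over all alternatives Pecam1 ran from 0.24 to 0.68 and Egfl7 from 0.006 to 0.37.

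Part of the conduction system genes were higher in the Nppa-high spots. Of 25 genes on the conduction list, 8 had 200 or more UMIs and 3 of these were at least 2-fold higher (2.18% of all genes were). They were Etv1, a transcription factor of fast-conducting muscle (25.9 against 7.24 CPM, ratio 1.84, interval 1.3 to 2.35), Rgs6, a brake on muscarinic signalling (21.3 against 8.98 CPM, 1.25, 0.66 to 1.79), and Igfbp5, an insulin-like growth factor binding protein of Purkinje cells (100.5 against 44.7 CPM, 1.17, 0.91 to 1.42). Only Etv1 of the 3 stayed past the fold with TMM or without mitochondrial UMIs. Etv1, with 39 and 171 UMIs, passed the minimum only with the UMIs of the Nppa-high spots. With a minimum of 50 UMIs, 8 of 14 list genes were past the fold, Cntn2 (described next) among them. Of all 10641 genes 5.7% were. Cntn2 passed this lower minimum only with the UMIs of the Nppa-high spots.

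Cntn2, contactin 2, a cell adhesion protein that marks the Purkinje network, showed the largest ratio among the conduction genes with at least 50 UMIs. It had 51 UMIs in the 112 Nppa-high spots and 38 in the 2122 others (33.9 against 1.61 CPM, ratio 4.40, interval 3.76 to 5.04). Its place among the genes with at least 50 UMIs thus rests on the UMIs of the Nppa-high spots. It was found in 25 of 112 spots (22.3%) and 33 of 2122 (1.56%), or in 17.0% and 0.984% after thinning. Without the 3 Nppa-high spots highest in conduction markers the ratio was 3.97.

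Ion channel genes of pacemaker and Purkinje cells showed the same direction on few UMIs. Scn10a, a sodium channel gene, had 18 and 24 UMIs (ratio 3.56, 2.59 to 4.50), Hcn4, the pacemaker channel, had 25 and 69 (2.51, 1.79 to 3.19), and Kcne1, a potassium channel subunit, had 26 and 105 (1.96, 1.28 to 2.59). Slit2, a guidance protein, had 20 and 62 (2.34, 1.54 to 3.09), and Cacna1g, a T-type calcium channel of nodal and Purkinje cells, had 16 and 113 (1.15, 0.30 to 1.92). Cpne5 (6 and 3 UMIs, 4.97, 2.75 to 7.60) and Cacna2d2 (8 and 8 UMIs, 3.97, 2.36 to 5.59) rested on under 10 UMIs in the Nppa-high spots. Hcn2, another pacemaker channel that was among the 15 highest genes, had 23.3 against 7.11 CPM (1.71, 1.14 to 2.24).

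Isl1 and Shox2, transcription factors of the sinus node, were at or near 0. Isl1 had 0 UMIs in both sets and Shox2 had 1 and 11 (ratio 0.51, interval -4.91 to 3.30). Tbx3, a repressor of working muscle genes in nodes and bundles, had 14 and 192 (0.20, -0.70 to 0.98), and Irx3, a transcription factor of the Purkinje network, had 22 and 340 (0.02, -0.67 to 0.65). Gjd3 and Vsnl1 had no UMI in the section. Marker UMIs of Hcn4, Cacna1g, Shox2, Tbx3 and Cntn2 together were found in 45 of 112 Nppa-high spots (40.2%) and 365 of 2122 others (17.2%).

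**Figure D2:**
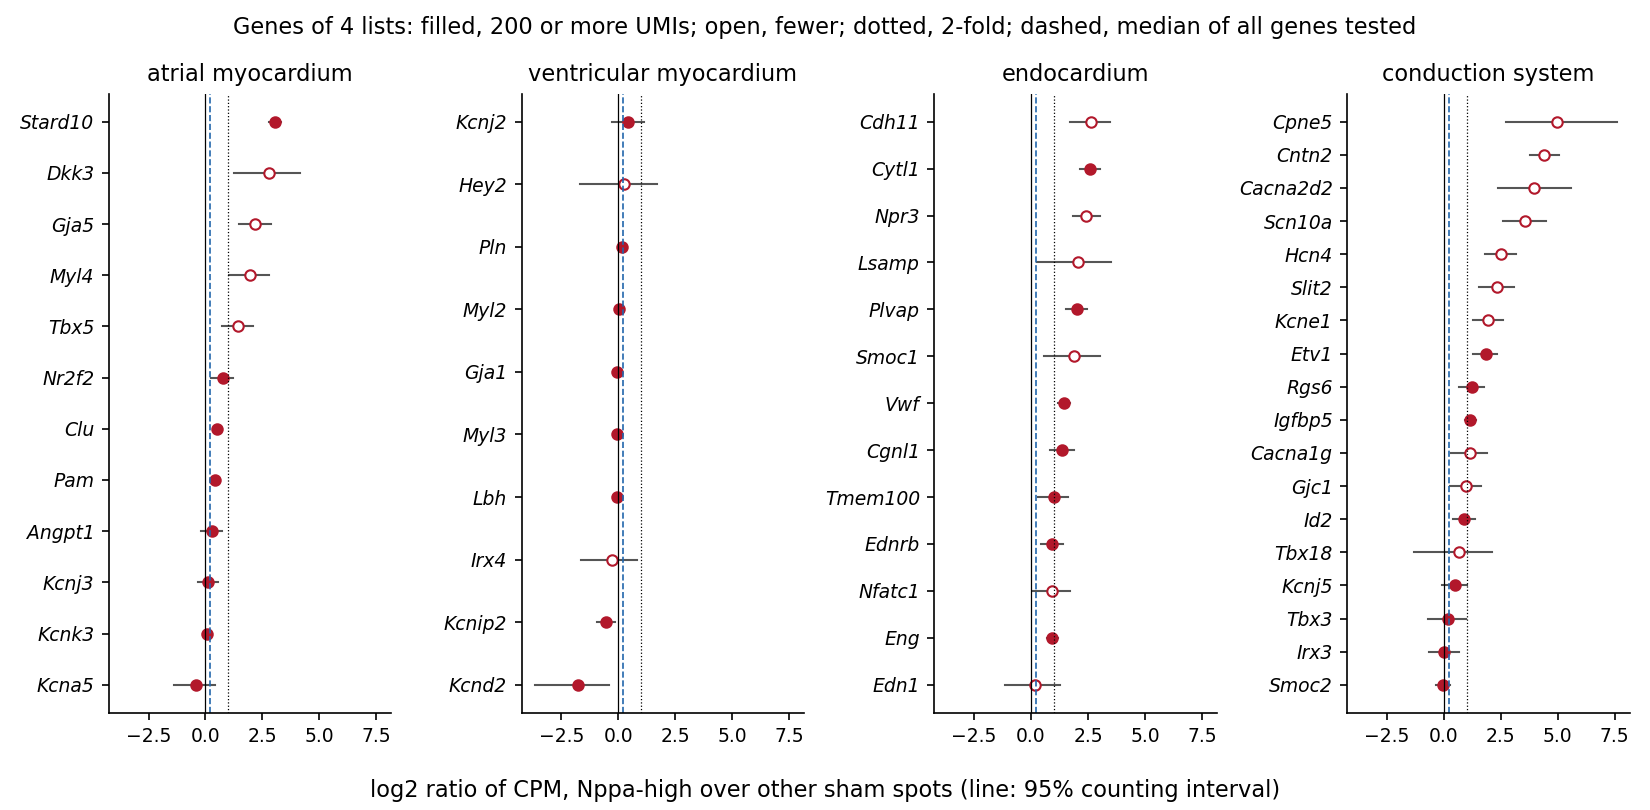
Log2 ratios of CPM in Nppa-high over other sham spots for genes of the atrial, ventricular, endocardial and conduction lists with at least 4 UMIs in the Nppa-high spots; filled points have 200 or more UMIs, open points fewer, and lines are 95% counting intervals. Most ventricular genes sit around 0 and Kcnd2 at -1.79, most endocardial genes lie to the right of the dotted 2-fold line or close to it, and the conduction genes run from Smoc2 at -0.02 to Cpne5 at 4.97.

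Endocardial and conduction markers were found together in some Nppa-high spots and alone in others. Of the 112 Nppa-high spots, 24 had UMIs of both marker sets, 42 of the endocardial set alone, 21 of the conduction set alone and 25 of neither. In the other spots 60.5% had neither and 6.08% had both. Within the 112 spots the rank correlation of the endocardial and conduction marker levels was -0.05. Whether the overlap differed from that of markers placed independently was not tested. Stard10 was found in 21 of the 25 Nppa-high spots with Cntn2 and in 30 of the 87 without it.

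The 25 Nppa-high spots with Cntn2 had a median of 53.0 Nppa UMIs per 10000, and the 87 without it had 24.1, at median depths of 14040 and 12825 UMIs. The first set also had more Stard10 (281 against 54.7 CPM), H19 (121 against 29.6 CPM), Npr3 (56.6 against 10.8 CPM), Hcn4 (38.6 against 8.97 CPM) and Scn10a (30.9 against 5.38 CPM). H19 was found in 7 of the 25 spots and in 15 of the 87. Another 2 genes went the other way: Nppb had 201 against 334 CPM and Tagln 5.15 against 144 CPM. These spots were split by a measured gene, so the values are a description.

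**Figure D3:**
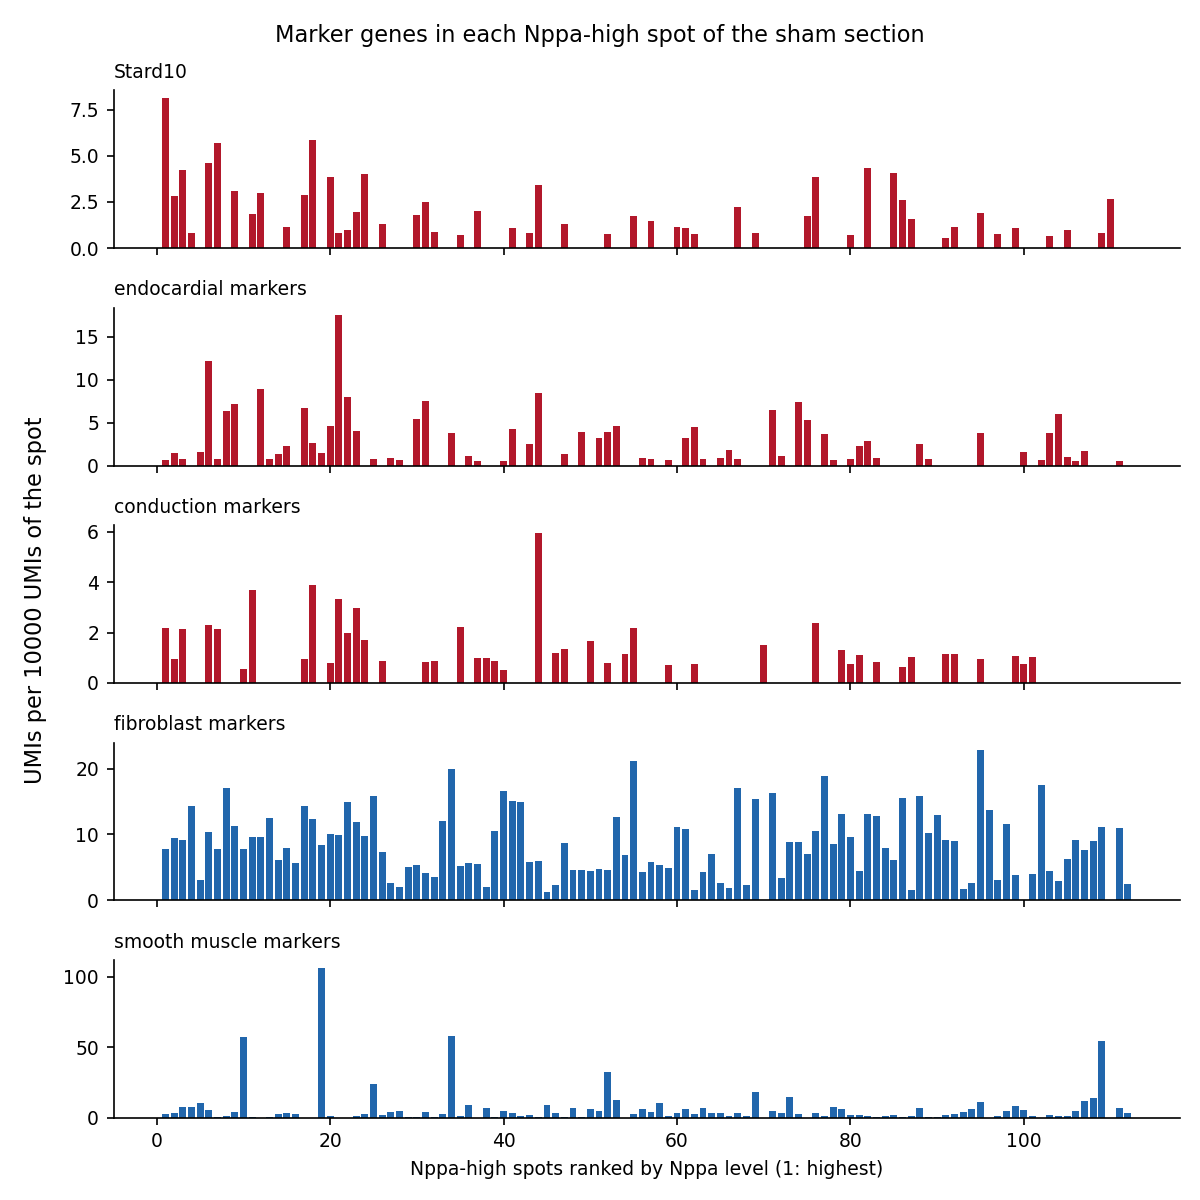
UMIs per 10000 UMIs in each of the 112 Nppa-high spots, ranked by Nppa from the highest on the left, for Stard10 and 4 marker sets. Stard10 reaches its highest value in the spot with the most Nppa, conduction markers reach 5.96 in 1 spot further down, and smooth muscle markers peak in few spots, the highest at 106.

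Nppb, the precursor of B-type natriuretic peptide, lies next to Nppa on chromosome 4 (Nppb at 147985788 to 147987205 and Nppa at 148000722 to 148002079, plus strand, GRCm38). It had 450 UMIs in the Nppa-high spots and 2654 in the others (299 against 112 CPM, ratio 1.41, interval 1.27 to 1.56), and was found in 97 of 112 spots (86.6%) and 1206 of 2122 (56.8%). Within the 112 spots, which were chosen by Nppa and so cover a part of its range, the rank correlation of the Nppb and Nppa levels was 0.06. Over all 2234 sham spots it was 0.19. Both are descriptions over spots of 1 section. Of the other genes of the natriuretic peptide pathway, 8 with 200 or more UMIs were tested and none reached the fold. Over all genes 2.18% were at least 2-fold higher, so 0 of 8 is near that share. Corin, the protease that cleaves the Nppa precursor, had 46.6 against 30.6 CPM (0.61, 0.23 to 0.96). Npr1, the receptor that signals for both peptides, had 15 and 203 UMIs (0.22, -0.65 to 0.97), and the endothelial clearance receptor Npr3 was described above.

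Genes of stressed cardiomyocytes were higher in part. Of the 11 genes of that list 2 were at least 2-fold higher (2.18% of all genes were), Nppb and Myh7, with a list median of 0.39. Myh7, the slow myosin heavy chain of the fetal ventricle and the conduction system, had 281 against 88.6 CPM (ratio 1.67, interval 1.51 to 1.82). Acta1, skeletal actin, had 633 against 381 CPM (0.73, 0.64 to 0.83) and Xirp2 0.72, while Ankrd1, a strain-responsive nuclear protein, had 1130 against 863 CPM (0.39, 0.32 to 0.46). Myh6, the adult fast myosin heavy chain, had 0.03. The sarcomere list otherwise stayed level (median 0.08), and calcium handling genes had a median of 0.04. Casq1, a skeletal calsequestrin with 37 and 125 UMIs, was an exception among them at 2.22 (1.65 to 2.76).

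Connective tissue genes were also higher in these spots. Of the 11 fibroblast genes 8 were at least 2-fold higher (2.18% of all genes were), with a median of 1.15. They were Gsn (2520 against 715 CPM, ratio 1.82), Fbln1 (257 against 97.0 CPM, 1.41), Mfap5 (1.38), Lum (1.21), Pdgfra (1.16), Dcn (586 against 264 CPM, 1.15), Dpep1 (1.07) and Pi16 (1.06). The collagens Col1a1 (0.59), Col1a2 (0.71) and Col3a1 (0.65) did not reach the fold. With TMM, 3 of the 8 (Gsn, Fbln1 and Mfap5) stayed past it. The summed level of Col1a1, Dcn and Pdgfra ran from 0 to 22.8 UMIs per 10000 over the Nppa-high spots (median 7.97). Over the others it ran from 0 to 39.0 (median 3.26), so the ranges overlapped. Within the 112 spots the rank correlation of the endocardial and fibroblast marker levels was 0.16. The part of the fibroblast markers in the endocardial and conduction results was not tested.

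Part of the smooth muscle and vessel wall genes were higher, with the contractile genes concentrated in few spots. Tagln (108 against 30.0 CPM, ratio 1.85), Myh11 (71.9 against 20.4 CPM, 1.82) and Mgp, an inhibitor of calcification (1233 against 415 CPM, 1.57) were at least 2-fold higher. These were 3 of 10 list genes tested (2.18% of all genes reached the fold), and Acta2 had 0.97. One Nppa-high spot alone held 140 UMIs of Acta2, Tagln and Myh11 and another 103, of 976 in all 112 spots. Without the 5% of sham spots highest in these markers (112 spots, 17 of them Nppa-high) Tagln had 0.71, Myh11 0.63 and Acta2 0.31, whereas Mgp, which was found in 111 of 112 Nppa-high spots, had 1.57, Stard10 had 3.22, Cntn2 4.53, Cytl1 2.89 and Npr3 2.64.

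Of the valve stroma list, 3 genes had 200 or more UMIs and 2 of them were past the fold (2.18% of all genes were). They were Prg4, a lubricating proteoglycan (43.2 against 13.5 CPM, 1.68), and Postn, periostin (55.2 against 26.1 CPM, 1.08). Cilp, a cartilage and stromal matrix protein under the minimum, had 45 and 107 UMIs (2.72, 2.19 to 3.24). Fmod had 0 UMIs in the Nppa-high spots, and Chad and Tnmd had 0 in both sets. Aldh1a2, an enzyme of retinoic acid synthesis, was the 1 tested gene of the epicardial list and had 24.6 against 11.2 CPM (1.13, 0.60 to 1.63). With TMM Aldh1a2 had 0.84, short of the fold, and 1 of the 3 valve stroma genes was past it. The mesothelial genes Upk3b, Msln and Krt19 had 0 UMIs in the Nppa-high spots. Upk3b had 0 in the other spots too, as 4 of the 11 epicardial list genes had 0 in both sets. With a minimum of 50 UMIs, 2 of 3 epicardial list genes were at least 2-fold higher (5.7% of all genes were). Among the nerve genes, Sox10 had 0 UMIs in the Nppa-high spots. Dbh, the enzyme that makes noradrenaline, had 31 and 121 UMIs (2.01, 1.39 to 2.59), while Th, which marks the same neurons, had 0 in the section.

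Genes among the 15 highest ratios were Stard10, H19, Adamtsl2, Gm31659, Cytl1, Plvap, Podn, Tagln, Etv1, Ccn2, Gsn, Myh11, Myl9 and Hcn2. Of these, H19, Adamtsl2, Cytl1, Podn, Etv1 and Hcn2 had under 200 UMIs in the other spots and passed the minimum only with the Nppa-high spots. H19, an imprinted long non-coding RNA that is abundant in the fetus, had 53.2 against 7.50 CPM (ratio 2.83, interval 2.43 to 3.22). It was found in 22 of the 112 Nppa-high spots, and 1 spot held 20% of its 80 UMIs there. Adamtsl2, a microfibril-binding matrix protein, had 43.2 against 6.35 CPM (2.77, 2.32 to 3.20), and the unnamed non-coding RNA Gm31659 had 67.2 against 9.99 CPM (2.75, 2.40 to 3.09). Podn, a matrix proteoglycan, had 1.87, Ccn2, a matrix-bound growth factor of the Hippo pathway, had 1.82, and Myl9, a smooth muscle light chain, had 1.71 and 1.13 without the smooth muscle spots.

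The 10 lowest ratios rested on few UMIs in the Nppa-high spots, from 4 for Kcnd2 to 15 for Cxcl5. Serpinb1a, an inhibitor of neutrophil proteases, had 5 and 281 UMIs (-1.84, -3.47 to -0.60), Lyn, a kinase of myeloid cells, 6 and 292 (-1.63), and Cybb, the phagocyte oxidase subunit, 7 and 273 (-1.31). Cxcl5, a neutrophil chemokine, had 15 and 584 (-1.31, -2.16 to -0.58). Btnl9, an endothelial surface protein, had 5 and 208 (-1.40). Snx15, Smim3, Ung and Impa2 had ratios from -1.49 to -1.28.

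Several genes climbed with Nppa when all sham spots were ordered by their Nppa level. Stard10 was at 12.0 CPM below the 50th percentile and 24.9 CPM between the 90th and 95th, then 69.6 CPM between the 95th and 99th and 263 CPM in the 23 spots at or above the 99th. Cntn2 followed a like course with 1.19, 8.03, 19.8 and 82.7 CPM, as did Cytl1 with 6.02, 15.3, 24.0 and 106 CPM and Npr3 with 2.93, 8.84, 12.0 and 59.1 CPM. All 4 were thus higher already between the 90th and 95th percentile, below the threshold. Nppb had 94.6 CPM below the 50th percentile, 229 CPM between the 90th and 95th and 407 CPM at the top, and Myh7 had 81.2, 155 and 405 CPM. Of the 138 Nppb UMIs in the 23 top spots, the 2 spots highest in Nppa held 28 each, so that last level leans on few spots. Myl2 stayed between 11856 and 12886 CPM throughout, and the median mitochondrial share fell from 50.4% to 37.9%.

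**Figure D4:**
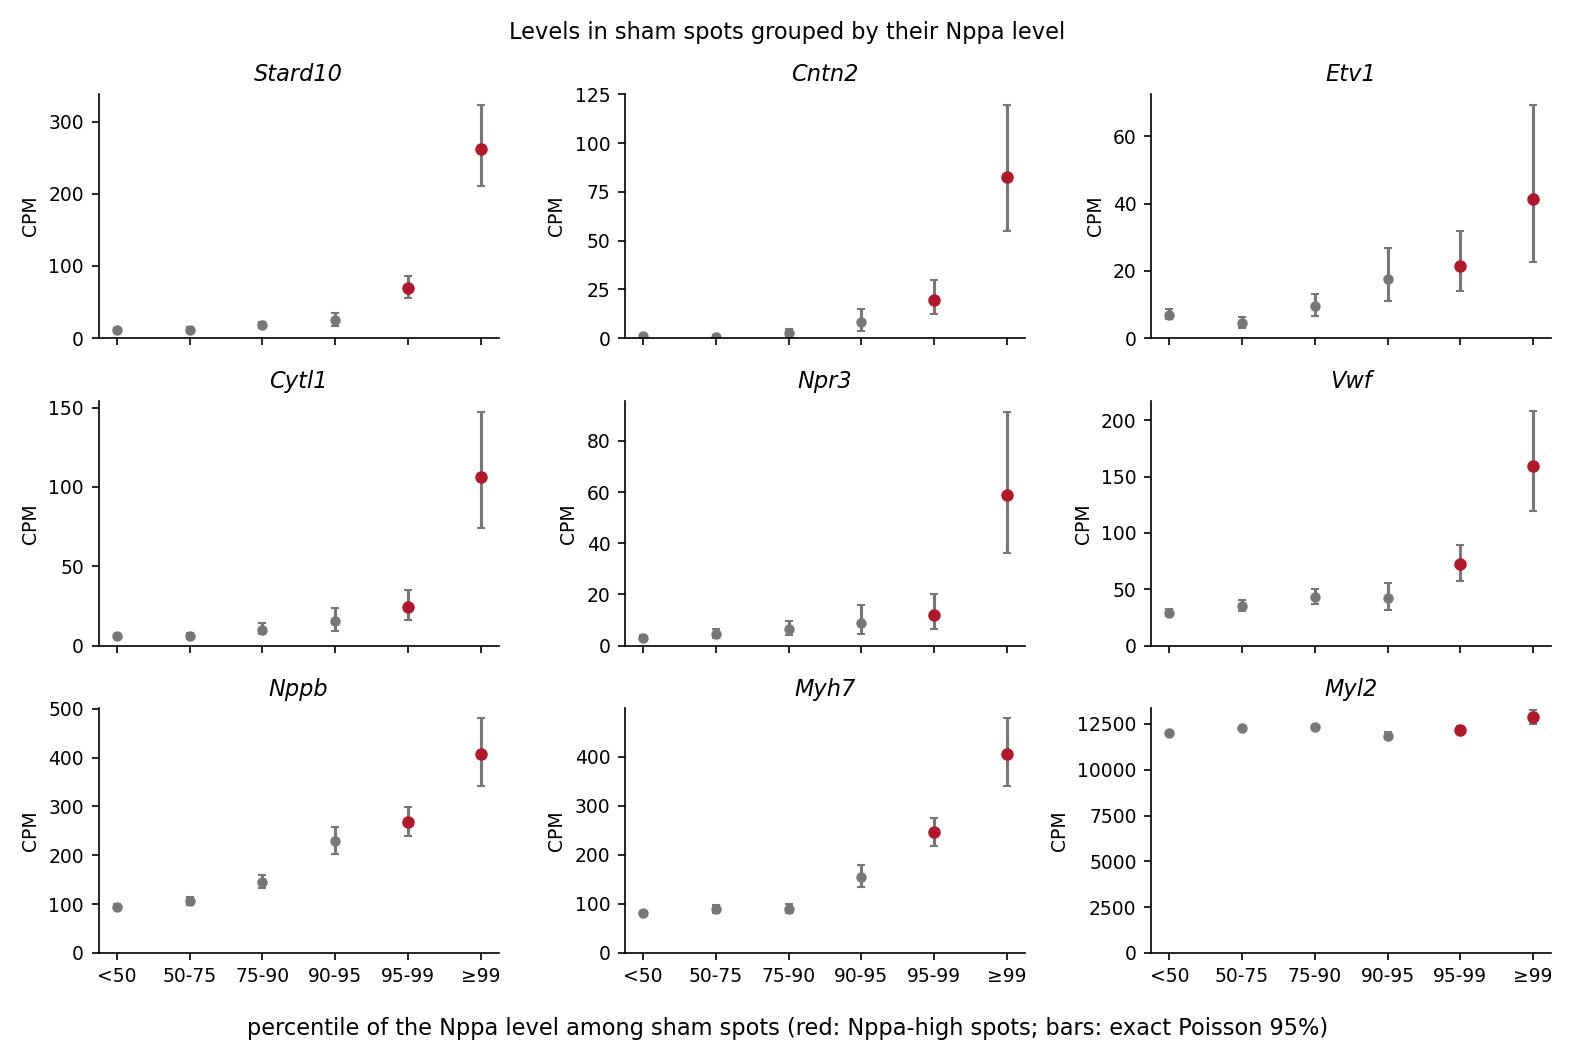
CPM of 9 genes in sham spots grouped by percentile of their Nppa level, with exact Poisson 95% intervals; the red points are the Nppa-high spots. Stard10, Cntn2, Cytl1 and Npr3 reach their highest level in the last group (23 spots), as do Nppb and Myh7, Nppb is already at 146 CPM between the 75th and 90th percentile, and Myl2 stays between 11856 and 12886 CPM.

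The sections that the rule did not use were split at the same Nppa level. In I/R 545 of 2082 spots (26.2%, exact binomial interval 24.3% to 28.1%) and in SBP 504 of 1960 (25.7%, 23.8% to 27.7%) were at or above the sham threshold, against 5.01% in sham by construction. In I/R 254 of 8071 genes with 200 or more UMIs were at least 2-fold higher in these spots (3.15%) and in SBP 166 of 6363 (2.61%). The median ratio of all genes tested was 0.36 in I/R and 0.29 in SBP. These 2 sections were injured, and each is 1 section, so the differences between sections have no test.

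In I/R the spots above the threshold carried stress genes. Of the 11 stress genes 10 were at least 2-fold higher (median 1.42), among them Nppb (2.27, 2.22 to 2.32), Acta1 (1.53) and Ankrd1 (1.42). None of 6 endocardial and none of 6 conduction genes with enough UMIs reached the fold there (3.15% of all genes were at least 2-fold higher). Cytl1 had 0.22 (-0.30 to 0.72), Npr3 -0.07 (-0.76 to 0.57) and Hcn4 -1.0 (-2.02 to -0.10), whereas Cntn2 had 40 and 23 UMIs (2.35, 1.57 to 3.15).

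In SBP both groups of genes were higher. Of 7 endocardial genes 6 were at least 2-fold higher (median 1.23), with Plvap at 1.98, Npr3 at 1.82 (1.44 to 2.20) and Cytl1 at 1.73 (1.38 to 2.08). Of the 11 stress genes 6 were past the fold, with Nppb at 2.28 and Ankrd1 at 1.24. Cntn2 had 44 and 14 UMIs (3.35, 2.46 to 4.33) and Scn10a 15 and 3 (4.02, 2.20 to 6.45). The atrial genes Myl7 and Sln were about as low as in sham: Myl7 had 3 UMIs in all in I/R and 4 in SBP, and Sln had none in either. Of 9 atrial list genes with enough UMIs in I/R, 1 was at least 2-fold higher and 2 lower. In SBP 0 of 8 were past the fold (2.61% of all genes were at least 2-fold higher). Stard10 had ratios of 1.16 in I/R and 0.96 in SBP, and 2.06 and 1.99 when each section was cut at its own 95th percentile. That cut gave 105 spots in I/R and 98 in SBP.

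**Figure D5:**
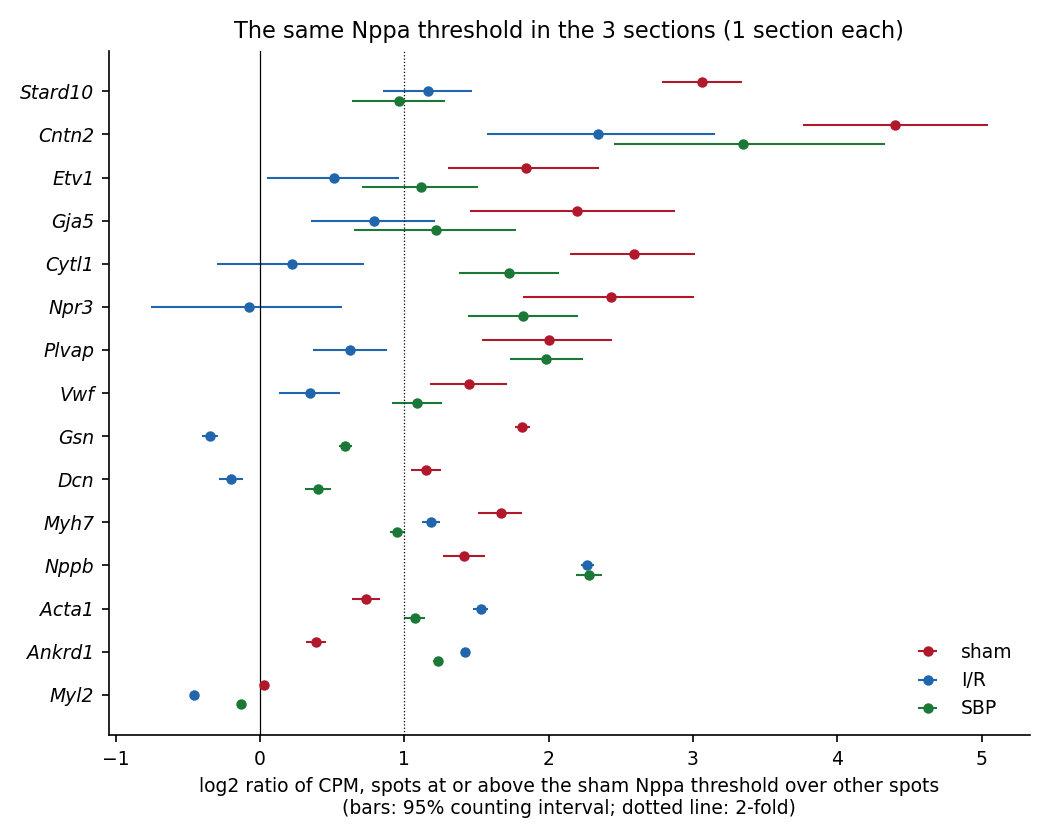
Log2 ratios of CPM in spots at or above the sham Nppa threshold over the other spots of the same section, for sham (112 spots), I/R (545) and SBP (504), with 95% counting intervals. Sham and SBP sit to the right of I/R for Cytl1, Npr3, Plvap and Vwf, while I/R and SBP sit to the right of sham for Nppb, Acta1 and Ankrd1.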

How the data were processed

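Visium libraries of 1 sham, 1 I/R and 1 SBP heart section were used. The values deposited by the authors are raw UMI counts for each gene in each tissue-covered spot, with no normalization. The submitters' processing notes name Space Ranger 1.3.0 and the build mm10, while the study's methods name another version and a human reference. The files list 32285 mouse genes, and GENCODE M21 (GRCm38) holds 32158 of their identifiers but not the other 127. Spot positions were not used here.

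Spots with under 200 detected genes were left out. Nppa-high spots, the gene lists and the genes named were chosen with earlier results of these data known. The UMIs of a gene in all spots of a set were added up and expressed per total UMIs of that set (CPM). Log2 ratios were given for genes with 200 or more UMIs in the sham section, and for listed genes with fewer, named as such. Genes were named if they had the 15 highest or 10 lowest ratios, belonged to 1 of 24 lists and were past a fold of 2, or stood on a fixed list of markers. Others in the text were listed genes under the minimum or without the fold, chosen after their values were seen. A few genes that these rules take are not reported here.

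Levels have exact Poisson, shares Clopper-Pearson and ratios conditional binomial intervals (95%), all for counting error only. Spots are not replicates, and with 1 section per condition no test was run. For shares of spots each spot was also thinned to 7000 UMIs. No clustering, spot naming or doublet detection was run. The calculation of ratios and intervals was tested on simulated data with known folds. Alternatives were other percentiles, scalings, UMI minimums, folds and spot filters, UMIs without the 13 mitochondrial genes, and sets of spots left out. The last included the 3 spots highest in conduction markers, the 5% highest in smooth muscle markers, and each section's own 95th percentile, all chosen after seeing the data. TMM factors followed the published formula. All steps ran in Python 3.11.15 (pandas 2.3.3, numpy 2.4.6, matplotlib 3.10.9, scipy 1.17.1).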

Additional observations from a re-analysis of the deposited data

Results flagged for a closer look

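Some genes were past 2-fold in the Nppa-high spots of sham and lay on the other side of 0 in spots above the same threshold of another section. The median ratio of all genes tested was 0.36 in I/R and 0.29 in SBP, so 0 was not the level of the typical gene there. Each section is 1 mouse and the conditions differ, so these differences were not tested. Among fibroblast and matrix genes higher in sham, Gsn had a log2 ratio of 1.82 in sham and -0.35 in I/R, and Dcn had 1.15 and -0.20. Fbln1 had 1.41 in sham and -0.26 in I/R. Dpep1 had 1.07 in sham and -0.64 in I/R, and Pi16 had 1.06 and -0.36. The fibroblast list as a whole had a positive median in I/R, 0.62, with 2 of 11 genes at least 2-fold higher (254 of all 8071 genes were). At the I/R section's own 95th percentile the median was 1.02, with 6 of 11 higher (135 of all 8071 genes were).

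Among genes lower in sham, Serpinb1a had -1.84 in sham and 0.77 in I/R, Snx15 had -1.49 and 0.38, and Cxcl5 had -1.31 and 0.44. Lyn had -1.63 in sham but 0.28 in I/R spots and 0.69 in SBP spots. Cybb had -1.31 in sham but 0.49 in I/R spots and 0.62 in SBP spots. These 5 genes had 5 to 15 UMIs each in the sham Nppa-high spots. Beside the I/R median of 0.36, Lyn, Snx15, Cxcl5 and Cybb were all close to the typical gene in I/R, Lyn slightly below it and Cxcl5 and Cybb slightly above.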

How the results depend on the processing

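No paired analysis was possible because only 1 section was made for every condition. The reported values were 112 Nppa-high spots, 145 genes at least 2-fold higher and 27 lower, of which 1 atrial, 4 endocardial and 3 conduction genes were higher. A high atrial score, to which Kcnk3 gave the most UMIs, was found in 3.57% of Nppa-high spots. Without mitochondrial UMIs there were 58 higher and 69 lower genes, 1 conduction gene and an atrial score of 0.893%. TMM and median-of-ratios factors each gave 46 and 63 genes and 1 conduction gene, since both lower every ratio by 0.29. The 90th percentile took 224 spots and gave 73 and 4 genes. The 99th took 23 spots and gave 603 and 354, with 2 atrial and 7 endocardial genes. With Nppa UMIs not scaled to depth, 14 genes were lower. A minimum of 50 UMIs gave 607 and 251 genes, with 4 atrial and 8 conduction genes. No minimum gave 2035 and 3882, with 5 atrial, 8 endocardial and 12 conduction genes. A minimum of 1000 UMIs gave 24 and 1, with 0 atrial, 0 endocardial and 1 conduction gene and an atrial score of 0%, because Stard10, Cytl1, Plvap, Vwf and Cgnl1 have fewer UMIs. Without the 1% of spots highest in Nppa 43 genes were lower and 2 endocardial genes higher. A fold of 1.5 gave 878 and 105 genes, with 2 atrial and 7 endocardial genes.

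Of 65 listed or named genes past the fold, 62 stayed past it with Nppa ranked after thinning, 63 with equal weight for each spot, 53 with TMM, 43 at the 90th percentile and 57 without the spots highest in smooth muscle markers. In that last setting 1 gene reversed, Lmod1, a smooth muscle gene with 12 and 71 UMIs, to a ratio of -0.62. Over all alternatives Stard10 ran from 2.36 to 4.03. Depth limits genes with few UMIs, such as Cntn2 with 51 and 38 and Dkk3 with 7 and 16.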

Other observations

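Nuclear genes of energy metabolism stayed within 2-fold. Of 14 fatty acid oxidation genes, all with 200 or more UMIs, 0 were at least 2-fold higher or lower, with a median of -0.07, and of 14 nuclear genes of oxidative phosphorylation likewise 0, with a median of 0.07. Over all genes 2.18% were at least 2-fold higher and 0.405% lower, so 0 of 14 is near these shares. All genes tested had a median of 0.22, so both lists lay below it, and with TMM their medians were -0.37 and -0.22. The mitochondrial transcripts, which encode subunits of oxidative phosphorylation, took 42.0% of UMIs in the median Nppa-high spot and 49.7% in the median other spot.

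Of 12 cardiac transcription factors with enough UMIs, among them Gata4 (0.36), Nkx2-5 (0.25) and Tbx20 (0.46), 0 reached the fold. Of 9 macrophage genes 0 reached it, with a median of 0.40, and Cd163, a scavenger receptor of resident macrophages under the minimum, had 24 and 158 UMIs (1.25, 0.57 to 1.88). Of 4 blood genes 0 reached it (median 0.57), and the 2 tested neutrophil genes had a median of -0.42. Over all genes 2.18% were at least 2-fold higher and 0.405% lower, so counts of 0 in lists this short are near these shares. The only lymphocyte gene tested had -0.62. Adipocyte, skeletal muscle and lung genes had under 200 UMIs each. Tnni1, the slow skeletal and fetal troponin I, had 5 UMIs in the Nppa-high spots and 3 in the 2122 others (4.71, 2.35 to 7.40).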
